A study of Mus musculus with 23 samples.

Results

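The genes described here are 10 genes of fatty acid synthesis that insulin and glucose are known to induce in liver and fat: the transcription factor genes Srebf1 and Mlxipl, the enzyme genes Acly, Acaca, Fasn, Me1, Elovl6, Scd1 and Scd2, and Thrsp. They were chosen by symbol, with earlier results of these data known. All 10 were found among 17644 genes with a TPM value and among the 14364 genes that passed the filter on low counts. Polyadenylated RNA was sequenced from the femur and tibia of a hind limb of 23 female C57BL6/N mice at 11 weeks of age, after the marrow had been removed, with 1 library per mouse. Type 1 diabetes (T1D) had been induced at 8 weeks of age with streptozotocin, a toxin of the insulin-producing beta cell, in repeated injections of 100 mg/kg. Controls received saline. T1D mice had 3 weeks of disease, and the paper included those with sustained fasting glucose above 300 mg/dL. The groups were WT Control (5 mice), WT T1D (6 mice), KO Control (6 mice) and KO T1D (6 mice), where KO is a Sarm1 knockout present in every cell of the animal and WT mice were littermates of the KO line or purchased animals of the same strain.

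Insulin raises fatty acid synthesis in liver and fat through SREBP-1c, the form of SREBP-1 that it induces, and glucose through ChREBP. Both bind the control regions of the enzyme genes. The enzymes convert citrate to acetyl-CoA, then to malonyl-CoA, then to palmitate, which is elongated and desaturated before it is built into triglyceride. In liver, loss of insulin is known to lower most of these mRNAs.

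None of the 10 genes passed the test for a change in any of 6 comparisons, which is 0 of 60 values at a Benjamini-Hochberg adjusted p under 0.05 in edgeR's quasi-likelihood test. Among all 14364 genes tested, that threshold was passed by 2.33% for T1D in WT, 0.0% for T1D in KO, 0.0% for the genotype by T1D interaction, 0.0278% for KO against WT in Control, 0.0905% for KO against WT in T1D and 0.111% for T1D averaged over genotypes. For T1D in WT the members nearest the threshold were Scd2 and Acaca, with lower means in T1D than in Control, and Thrsp, with a higher mean, and Thrsp was also near it for KO against WT in T1D. At an unadjusted p under 0.05, 4 of 10 members were reached for T1D in WT against 22.2% of all genes, and 0 of 10 for T1D in KO against 3.15%. The corresponding counts were 2 of 10 for the interaction (10.2% of all genes), 1 of 10 for KO against WT in Control (4.8%), 3 of 10 for KO against WT in T1D (17.1%) and 2 of 10 for T1D averaged over genotypes (16.4%). With DESeq2's Wald test on the same counts, 3 of 10 members were called for T1D in WT (6.98% of all genes), 0 for T1D in KO (0.0%), 0 for the interaction (0.0%), 0 for KO against WT in Control (0.0278%), 1 for KO against WT in T1D (1.66%) and 1 for T1D averaged over genotypes (1.73%). WT T1D mice enter the comparison with WT Control, the comparison with KO T1D and the interaction, so these do not vary independently.

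Libraries held 16938101 to 20135592 counts per mouse. Sarm1 had 5 to 32 counts per mouse and, with Control and T1D pooled, was not lower in the mice labelled KO (difference in mean log2(CPM + 0.5), KO minus WT, 0.07, two-sided permutation p = 0.696, n = 12 and 11). Its log2 fold change, KO against WT, was -0.55 ± 0.38 (SE) in Control and 0.78 ± 0.37 in T1D (edgeR unadjusted p = 0.158 and 0.0435, adjusted p = 0.999 and 0.281). By qPCR, the paper reported significantly less Sarm1 expression in KO bone than in WT bone. The counts cover the whole gene and do not show which exons the reads came from, so KO is used here for the libraries labelled KO. The osteoblast and osteocyte markers that define bone were abundant in all 4 groups, but in WT T1D mice A3905 and A3906 they summed to 4065 and 3162 CPM, against at least 35524 CPM in every control mouse. The same 2 mice had the lowest B cell sums (154 and 190 CPM) and the highest adipocyte scores (5.27 and 5.49, a score being the mean log2(CPM + 0.5) of the markers), although their summed CPM of adipocyte markers (763 and 858) was among the lowest. Results that rest on them are given with and without them. The mice with IDs in the A17 series are 1 WT Control and 3 WT T1D mice and no KO mouse, so values within the A36 to A39 series are given for the members whose values moved most.

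The upstream sequences of 3 members are shown because their control regions differ in which factor motifs they hold. The RefSeq promoter table for GRCm38.p6 (250 bases before to 50 bases after a start site) held 12 start sites of 8 of the 10 members, all but Scd1 and Scd2. Each line below is the 250 bases before a start site, 5′ to 3′ on the gene's strand, with motif matches on either strand in capitals. They belong to Acly (chr11:100528001-100528250, minus strand), Fasn (chr11:120824548-120824797, minus strand) and the more upstream start of Mlxipl (chr5:135089640-135089889, plus strand).
Acly: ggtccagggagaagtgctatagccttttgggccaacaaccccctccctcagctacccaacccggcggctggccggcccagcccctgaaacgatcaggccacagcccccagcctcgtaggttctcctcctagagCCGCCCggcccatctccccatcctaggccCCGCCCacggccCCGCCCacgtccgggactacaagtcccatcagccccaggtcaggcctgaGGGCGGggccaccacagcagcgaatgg
Fasn: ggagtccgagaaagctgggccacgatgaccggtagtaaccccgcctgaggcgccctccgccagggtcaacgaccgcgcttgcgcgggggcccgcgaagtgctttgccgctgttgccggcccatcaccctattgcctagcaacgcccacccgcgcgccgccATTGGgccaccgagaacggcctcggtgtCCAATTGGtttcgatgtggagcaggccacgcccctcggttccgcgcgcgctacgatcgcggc
Mlxipl: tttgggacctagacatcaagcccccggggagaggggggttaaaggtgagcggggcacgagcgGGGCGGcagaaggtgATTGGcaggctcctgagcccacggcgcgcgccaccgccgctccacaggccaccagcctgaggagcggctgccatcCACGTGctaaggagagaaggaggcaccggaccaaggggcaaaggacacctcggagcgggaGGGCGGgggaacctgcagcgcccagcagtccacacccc

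The motifs searched were TCACNCCAC, a sterol regulatory element of the type that SREBP binds, the E-box CACGTG, the CCAAT box CCAAT and the GC box GGGCGG. In the lines above, the Acly capitals are 4 GC boxes, the Fasn capitals are 3 CCAAT boxes of which 2 overlap, and the Mlxipl capitals are 2 GC boxes, 1 CCAAT box and 1 E-box. A CCAAT box was found in 7 of these 12 promoters, of 6 of the 8 members (37.4% of all 32851 promoters in the table held it) and a GC box in 5 of 12, of 4 of the 8 members (35.7% of all). The E-box was found only at this start of Mlxipl (7.15% of all), and the sterol element, as TCACACCAC, only at the other Mlxipl start (1.24% of all). These are matches of letters in a short window, and counts per gene do not separate the start sites of Srebf1, Mlxipl or Me1.

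In WT Control bone, Scd1 and Acly had the highest levels per transcript length, at 44.4 ± 6.78 and 41.0 ± 3.38 TPM (SD, n = 5). Scd1 encodes a stearoyl-CoA desaturase, which makes oleate from stearate, and Acly encodes ATP citrate lyase, which makes cytosolic acetyl-CoA. They were followed by Scd2 (24.5 TPM), Srebf1 (19.3 TPM), Fasn (13.4 TPM), Me1 (9.44 TPM), Acaca (6.63 TPM), Thrsp (4.45 TPM), Elovl6 (2.69 TPM) and Mlxipl (1.78 TPM). Neighbours in this order overlapped in their ranges over the 5 mice, except that every Acly value was above every Scd2 value and every Srebf1 value above every Fasn value. The spread between mice of 1 group was smallest for Acly, with a within-group SD of 0.08 in log2(CPM + 0.5), which is lower than that of all but 0.453% of the genes tested. It was largest for Mlxipl, at 0.97 (98.5th percentile).

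**Figure D1:**
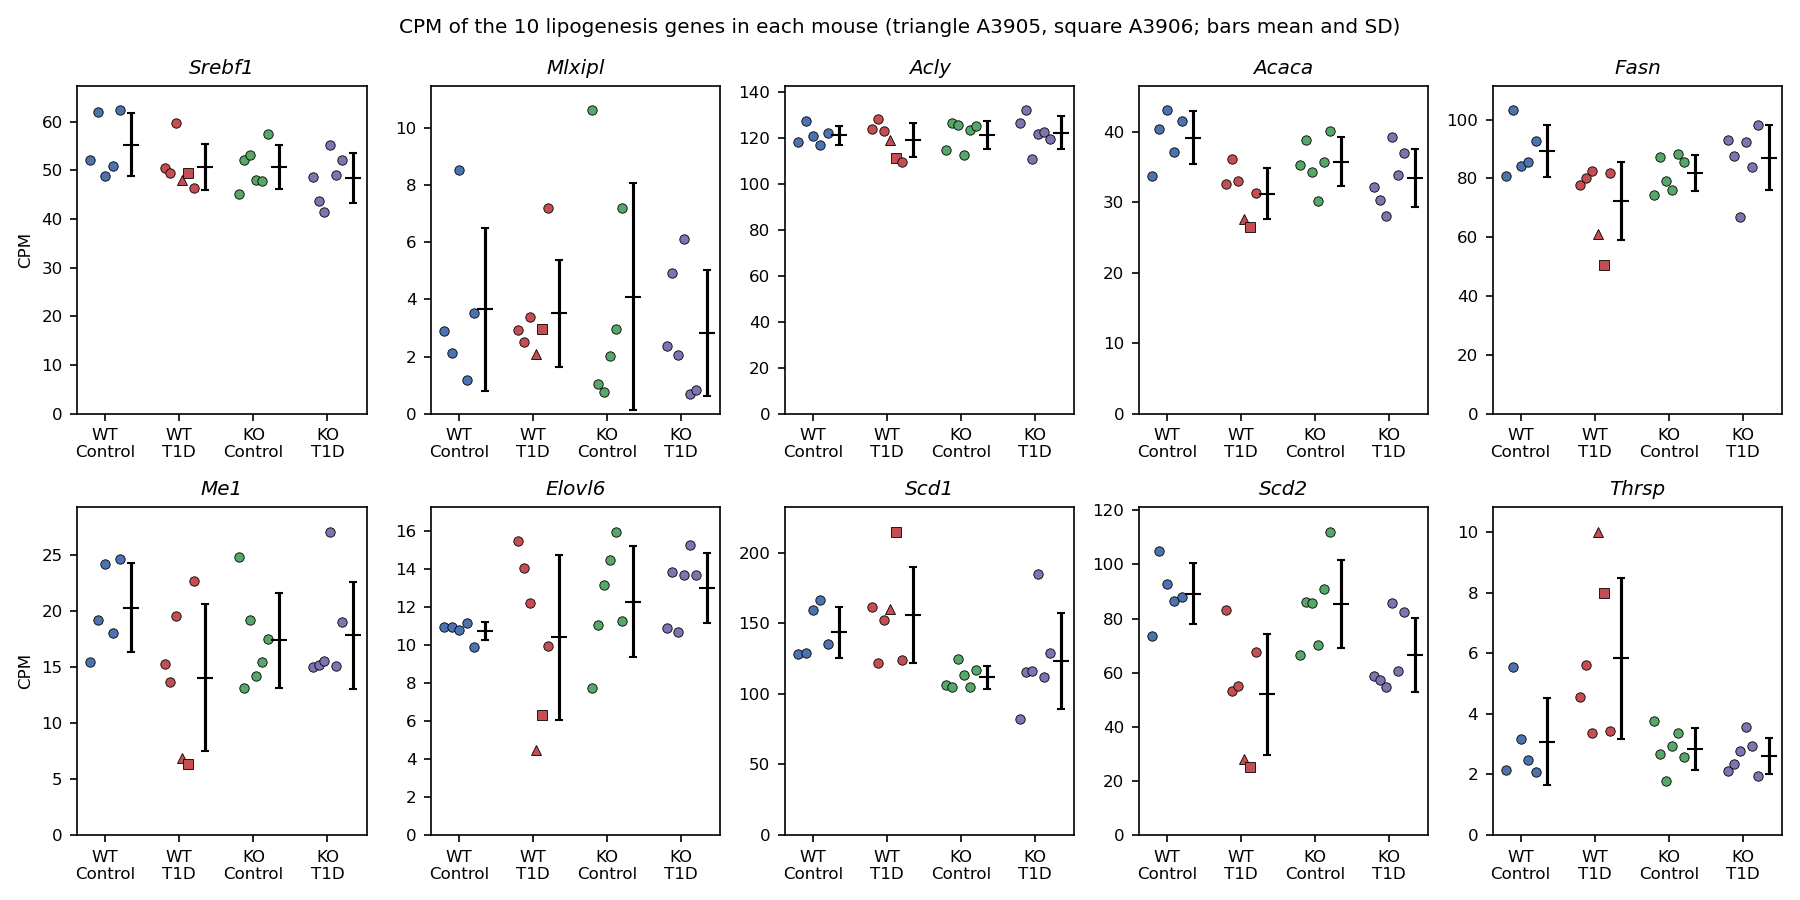
CPM (counts scaled to the TMM-adjusted library size) of each gene in each of 23 mice, by group, with the mean and SD at the right of each group and A3905 and A3906 drawn as a triangle and a square. Scd2 is low and Thrsp high in those 2 WT T1D mice, while Acly lies between 109.6 and 132 CPM in every mouse.

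Of the 2 regulators, Srebf1 encodes SREBP-1. Its CPM in WT Control mice was 52.2, 62.1, 48.8, 50.8 and 62.4. In WT T1D it ran from 46.4 through a median of 49.5 to 59.8, in KO Control from 45.2 through 50.01 to 57.6 and in KO T1D from 41.4 through 48.8 to 55.2. The 4 groups overlapped. For T1D the log2 fold change was -0.13 ± 0.09 (SE, edgeR adjusted p = 0.407) in WT and -0.07 ± 0.08 (adjusted p = 1.00) in KO, with a 95% confidence interval of -0.31 to 0.06 in WT.

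Mlxipl, which encodes ChREBP, was near the bottom of the measurable range. Its CPM was 2.90, 2.14, 8.53, 1.18 and 3.53 in WT Control, 2.09 to 7.23 (median 2.94) in WT T1D, 0.751 to 10.6 (median 2.49) in KO Control, and 0.685 to 6.11 (median 2.21) in KO T1D. In each WT group 1 mouse stood above the rest (8.53 and 7.23), whereas the 2 highest mice were 10.6 and 7.22 CPM in KO Control and 6.11 and 4.91 CPM in KO T1D. The interval of its log2 fold change for T1D in WT, -1.35 to 1.24, ran from 0.393-fold to 2.36-fold, so a difference was not detectable with this spread.

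Acly was the steadiest member. It was measured at 118, 127, 121, 117 and 122 CPM in WT Control, 109.6 to 128 (median 121) in WT T1D, 113 to 126 (median 124) in KO Control and 111 to 132 (median 122) in KO T1D. The interval of its log2 fold change for T1D was -0.14 to 0.09 in WT and -0.10 to 0.12 in KO, which in WT is 0.909-fold to 1.07-fold.

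Acaca encodes acetyl-CoA carboxylase 1, which makes the malonyl-CoA used by Fasn. Its CPM was 33.7, 40.4, 43.1, 37.1 and 41.5 in WT Control, and 26.4 to 36.2 with a median of 32.0 in WT T1D. In WT T1D, 5 of 6 mice were below every WT Control mouse. This was a log2 fold change of -0.33 ± 0.10 (SE, 20.3% lower, edgeR adjusted p = 0.0598). In KO the ranges were 30.2 to 40.1 CPM in Control and 28.1 to 39.3 CPM in T1D, with a log2 fold change of -0.09 ± 0.09.

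Fasn encodes fatty acid synthase, which makes palmitate. Its CPM was 80.9, 103, 84.3, 85.7 and 92.8 in WT Control and ran from 50.6 through a median of 78.9 to 82.4 in WT T1D. In WT T1D, 4 of 6 mice were below every WT Control mouse, and the 2 lowest were A3905 (61.0) and A3906 (50.6). In WT the log2 fold change was -0.31 ± 0.11 (SE, edgeR adjusted p = 0.112) and -0.15 without those 2 mice (adjusted p = 0.566). In KO it was 0.09 ± 0.11, with 74.4 to 88.4 CPM in Control and 66.8 to 98.0 CPM in T1D. The difference between the T1D effects in KO and WT was 0.40 ± 0.16 on the log2 scale (unadjusted p = 0.0182, edgeR adjusted p = 0.479), and 0.24 ± 0.12 without those 2 mice (unadjusted p = 0.0666).

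Me1 encodes malic enzyme 1, a source of NADPH for fatty acid synthesis. Its CPM was 15.4, 19.2, 24.2, 18.0 and 24.6 in WT Control, 6.36 to 22.6 (median 14.4) in WT T1D, 13.1 to 24.8 in KO Control and 14.98 to 27.0 in KO T1D. A3905 and A3906 had the 2 lowest values of all 23 mice, 6.85 and 6.36. For T1D in WT the log2 fold change was -0.53 ± 0.26 (SE, edgeR adjusted p = 0.232), -0.19 without those mice and -0.84 within the A36 to A39 series (adjusted p = 0.0950).

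Elovl6 encodes the elongase that extends palmitate to stearate. WT Control mice were close together at 11.0, 11.0, 10.8, 11.2 and 9.92 CPM, whereas WT T1D mice ran from 4.47 through a median of 11.1 to 15.5. Among WT T1D mice, 3 were above and 2 below every WT Control mouse, and the 2 lowest were again A3905 and A3906. The log2 fold change in WT was -0.05 ± 0.23 (SE) with all mice, 0.26 ± 0.16 without those 2 and -0.62 ± 0.24 within the A36 to A39 series (edgeR adjusted p = 0.0773). In KO the ranges were 7.72 to 16.0 CPM in Control and 10.7 to 15.3 CPM in T1D.

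Scd1 and Scd2 are neighbouring paralogs on chromosome 19, 87.6 kb apart on opposite strands in the RefSeq annotation of GRCm38.p6 (Scd2 at chr19:44293676-44306864, Scd1 at chr19:44394450-44407709). Of the 100-base windows in the GENCODE transcripts of Scd1, 48 of 4888 also occurred in Scd2, so few single reads could belong to either. Scd1 was measured at 128, 129, 159, 166 and 135 CPM in WT Control, 122 to 215 (median 156) in WT T1D, 105 to 125 (median 109.6) in KO Control and 82.3 to 185 (median 116) in KO T1D. All 6 KO Control mice were below every WT Control mouse. Scd1 was the only member of 10 whose groups did not overlap in that comparison, where the share of all genes was 0.613%. The log2 fold change, KO against WT in Control, was -0.36 ± 0.15 (SE, unadjusted p = 0.0265, edgeR adjusted p = 0.999). For KO against WT in T1D it was -0.34 ± 0.15 (unadjusted p = 0.0298, adjusted p = 0.250). For T1D it was 0.12 ± 0.15 in WT and 0.14 ± 0.15 in KO. On the TPM scale the WT value was -0.19, but the median of all genes stood at -0.24 there. Relative to that median, Scd1 was at 0.05. In the other contrasts no member was free of overlap (share of all genes 2.19% for T1D in WT, 0.258% for T1D in KO and 0.863% for KO against WT in T1D).

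Scd2, the other desaturase, had the lowest p of the 10 members for T1D in WT. Its CPM was 73.7, 105, 92.7, 86.5 and 87.9 in WT Control. In WT T1D it was 25.0 at the lowest, 54.2 at the median and 83.0 at the highest. In WT T1D, 5 of 6 mice were below every WT Control mouse, with A3905 (28.0) and A3906 (25.0) the lowest of all 23 mice. The log2 fold change was -0.78 ± 0.22 (SE, 0.583-fold, 95% confidence interval 0.422 to 0.805, unadjusted p = 0.00211, edgeR adjusted p = 0.0578). Without those 2 mice it was -0.47 ± 0.16 (unadjusted p = 0.00893, adjusted p = 0.321).

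In KO mice Scd2 was also lower on average in T1D, but with more overlap. It ran from 66.6 through 86.0 to 112 CPM in KO Control and from 54.7 through 59.8 to 85.7 CPM in KO T1D, and 4 of 6 KO T1D mice were below every KO Control mouse. In edgeR the KO log2 fold change was -0.36 ± 0.21 (SE, unadjusted p = 0.110, edgeR adjusted p = 1.00). The T1D effects in KO and WT differed by 0.42 ± 0.31 (adjusted p = 0.624), by 0.10 ± 0.21 without A3905 and A3906 and by 0.84 ± 0.32 within the A36 to A39 series (adjusted p = 0.144). Averaged over genotypes, the log2 fold change was -0.57 ± 0.16 (unadjusted p = 0.00133, adjusted p = 0.113).

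As the log2 fold changes of Scd2 and Scd1 had opposite signs in WT, neither past the threshold, their ratio was computed after their values had been seen, and it is described without a test. The log2 ratio of Scd1 to Scd2 counts was 0.80, 0.29, 0.78, 0.94 and 0.62 in WT Control, and 0.87 to 3.10 with a median of 1.33 in WT T1D. It was 0.06 to 0.68 (median 0.41) in KO Control and 0.48 to 1.11 (median 0.95) in KO T1D. Above every control mouse of their genotype were 5 of 6 WT T1D mice and 4 of 6 KO T1D mice. The mean ratio in T1D over that in Control was 2.00-fold in WT and 1.38-fold in KO, and without A3905 and A3906, which had ratios of 2.52 and 3.10 on the log2 scale, it was 1.35-fold in WT.

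**Figure D2:**
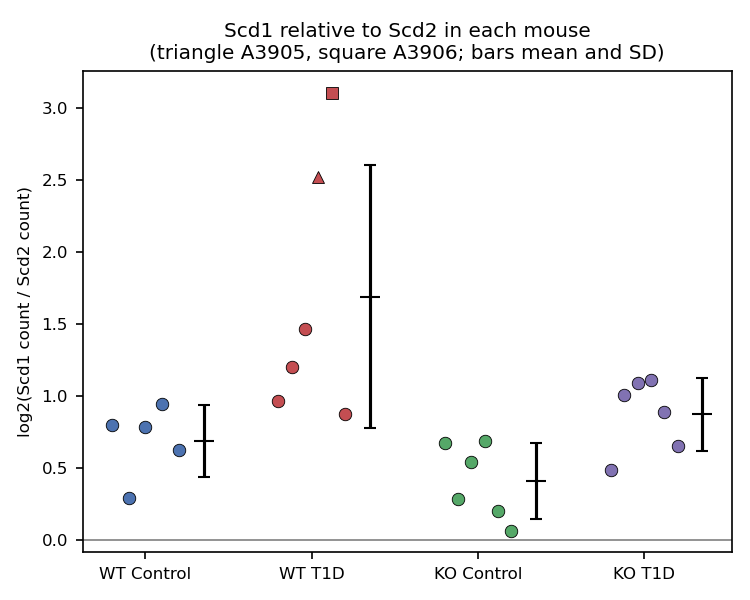
Log2 ratio of Scd1 counts to Scd2 counts in each of 23 mice by group, with the mean and SD beside the points. The means of T1D and Control are 1.69 and 0.69 in WT and 0.87 and 0.41 in KO, and A3905 and A3906 are the 2 highest points.

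Thrsp encodes Spot 14, a small protein of lipogenic tissues that thyroid hormone and carbohydrate induce. It was the only member among the 4 lowest p values for T1D in WT that was higher in T1D. Its CPM was 2.14, 5.54, 3.16, 2.48 and 2.09 in WT Control. In WT T1D it was 3.38 at the lowest, 5.08 at the median and 10.02 at the highest. In WT T1D, 3 of 6 mice were above every WT Control mouse, and A3905 (10.02) and A3906 (7.98) were the 2 highest of all mice. The log2 fold change was 0.92 ± 0.29 (SE, 1.89-fold, 95% confidence interval 1.24 to 2.88, edgeR adjusted p = 0.0781), and 0.46 ± 0.27 without those 2 mice (adjusted p = 0.554).

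Thrsp in KO mice was 1.77 to 3.77 CPM (median 2.80) in Control and 1.963 to 3.57 CPM (median 2.56) in T1D, ranges that overlapped almost fully. Its log2 fold change for T1D in KO was -0.12 ± 0.28 (SE). In T1D, 5 of 6 KO mice were below every WT mouse, with a log2 fold change, KO against WT, of -1.16 ± 0.28 (unadjusted p = 0.000417, edgeR adjusted p = 0.0798, DESeq2 adjusted p = 0.0105). The T1D effects in KO and WT differed by -1.04 ± 0.41 (unadjusted p = 0.0179, edgeR adjusted p = 0.479). Without A3905 and A3906 this difference was -0.59 ± 0.37 (unadjusted p = 0.122), and KO against WT in T1D was -0.70 ± 0.26 (unadjusted p = 0.0142, edgeR adjusted p = 0.656).

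**Figure D3:**
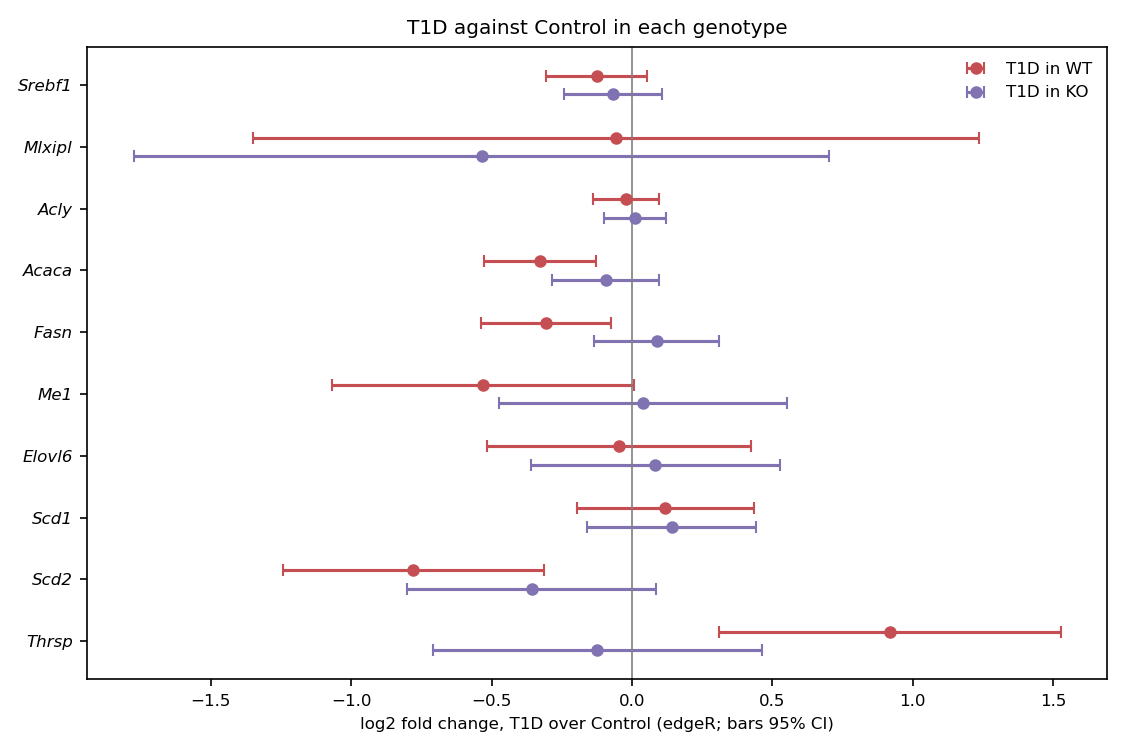
Log2 fold change of T1D over Control with 95% confidence intervals from edgeR for the 10 genes, in WT and in KO. In WT the intervals of Acaca, Fasn, Scd2 and Thrsp leave out 0, and in KO every interval holds 0.

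Across the 10 members, the median log2 fold change for T1D was -0.09 in WT (median of all genes -0.01) and -0.03 in KO (median of all genes 0.00), with 8 of 10 lower in WT and 5 of 10 in KO. The scale on which levels were compared changed the counts. By limma on log2(TPM + 1), 6 members were called for T1D in WT, all lower (Acaca, Acly, Fasn, Me1, Scd2 and Srebf1), but 35.9% of all genes were called there and the median gene stood at -0.24. Relative to that median, Scd2 was at -0.86, Me1 at -0.55, Fasn at -0.32, Acaca at -0.28, Srebf1 at -0.14, Acly at -0.07 and Elovl6 at -0.04. Thrsp was at 0.75, Mlxipl at 0.08 and Scd1 at 0.05. These relative values were not tested. Limma's test was against 0, with Thrsp at 0.51 (adjusted p = 0.0666).

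The WT result also depended on which mice were compared. Within the A36 to A39 series, where A3905 and A3906 are 2 of 3 WT T1D mice, 4 members were called by edgeR for T1D in WT: Scd2 (log2 fold change -1.20, adjusted p = 0.0124), Acaca (-0.50, adjusted p = 0.0143), Fasn (-0.49, adjusted p = 0.0252) and Thrsp (1.12, adjusted p = 0.0370). Of all genes, 15.4% were called in that fit. The same mice gave 3 called members for KO against WT in T1D (10.7% of all genes): Thrsp (-1.46, adjusted p = 0.0122), Elovl6 (0.90, adjusted p = 0.0196) and Fasn (0.42, adjusted p = 0.0436). Averaged over genotypes, they gave Scd2 (-0.78, adjusted p = 0.0256) and Acaca (-0.30, adjusted p = 0.0344), against 3.74% of all genes. Without A3905 and A3906, edgeR called 0 of 10 (0.0% of all genes), and Scd2 and Acaca were the members with an unadjusted p under 0.05 (0.00893 and 0.0262). Elovl6 and Fasn, KO against WT in T1D, were then at 0.01 and 0.11.

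**Figure D4:**
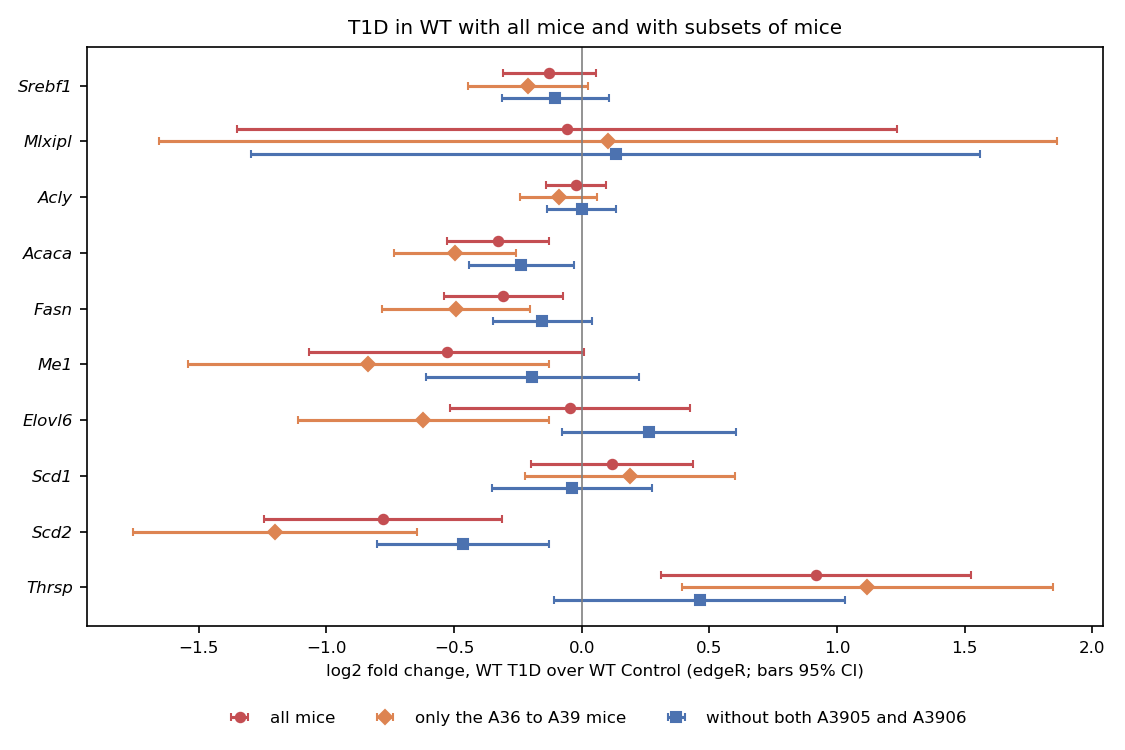
Log2 fold change of WT T1D over WT Control with 95% confidence intervals from edgeR, with all mice, within the A36 to A39 series and without A3905 and A3906. Scd2 moves from -0.78 to -1.20 and -0.47, and Elovl6 from -0.05 to -0.62 and 0.26.

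Adipocytes are known to express most of these genes, and adipocyte markers moved with some of them here. Of 10 adipocyte markers, 9 were tested, and Lep and the brown adipocyte markers Ucp1 and Cidea were too low to test. For T1D in WT, 1 of 9 was called (Fabp4, a fatty acid carrier, log2 fold change 1.36, adjusted p = 0.0418), against 2.33% of all genes. Of the 9, 8 were higher and the median log2 fold change was 1.11. Without A3905 and A3906 the median was 0.45. The mean score was 4.77 in WT T1D against 4.03 in WT Control, and 4.03 in KO T1D against 3.72 in KO Control. Among WT T1D mice, A3905 and A3906 had scores of 5.27 and 5.49, and the others 4.34 to 4.56. The summed CPM of the markers, by contrast, overlapped (888 to 1441 in WT Control, 763 to 1265 in WT T1D, 762 to 1430 in KO Control and 886 to 1589 in KO T1D). In bulk bone, fewer cells of a type and less RNA per cell cannot be told apart.

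Over the 23 mice, Scd1 had the closest relation of the 10 members to the adipocyte score (Pearson r = 0.74, Spearman rho = 0.69, two-sided permutation p = 7e-05 and 0.00036, adjusted over 10 members 0.0007 and 0.0036). Its r was 0.62 without the 2 mice farthest from the median score, which are A3905 and A3906, 0.75 within the A36 to A39 series and 0.66 on deviations from the group means. Fasn (r = -0.71, rho = -0.47), Scd2 (-0.73 and -0.51), Thrsp (0.64 and 0.50) and Acly (-0.52 and -0.52) also had an adjusted permutation p under 0.05, of 0.000933, 0.0009, 0.00365 and 0.0182 for r and 0.0467, 0.0426, 0.0426 and 0.0426 for rho. For Elovl6 (r = -0.57, rho = -0.25), Acaca (-0.51 and -0.36) and Me1 (-0.45 and 0.00) the adjusted permutation p was 0.0124, 0.0182 and 0.0406 for r and 0.336, 0.146 and 0.995 for rho. The permutations were made over all 23 mice regardless of group, so these p values also take in differences between groups. On deviations from the group means, r was -0.70 for Fasn, -0.55 for Scd2, 0.31 for Thrsp and -0.62 for Acly. It was -0.55 for Elovl6, -0.35 for Acaca and -0.27 for Me1. Without A3905 and A3906, r was -0.45 for Acly. It was -0.31 for Fasn, -0.32 for Scd2, 0.22 for Thrsp, 0.00 for Elovl6, -0.15 for Acaca and 0.35 for Me1. The relations of these 6 members were thus weaker without those mice, and that of Me1 changed sign. Srebf1 (-0.20) and Mlxipl (0.16) had an adjusted permutation p of 0.410 and 0.465. With the score as a covariate, edgeR called 0 members in any comparison (0.0% of all genes for T1D in WT). As 0 members were called without it too, this count could not show an effect of the covariate. The part of adipocyte content in the members' values was not tested.

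**Figure D5:**
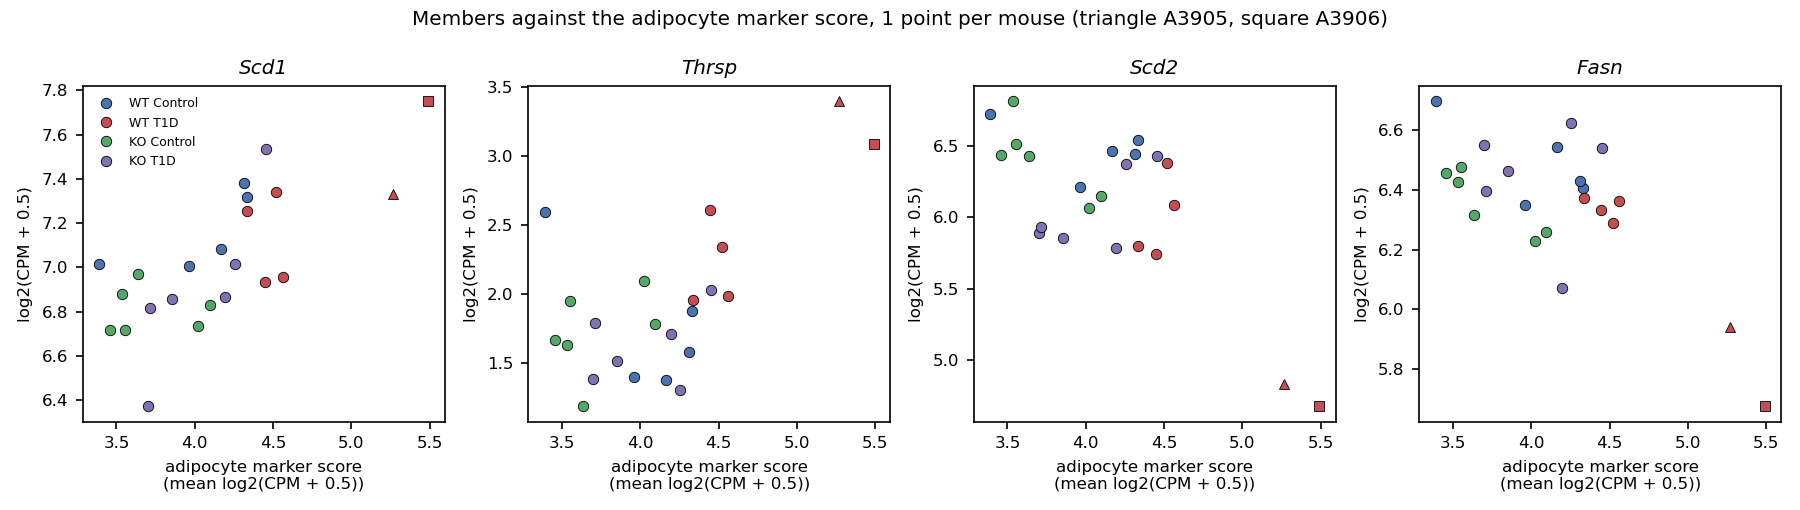
Log2(CPM + 0.5) of Scd1, Thrsp, Scd2 and Fasn against the adipocyte marker score, 1 point per mouse and 1 colour per group. A3905 and A3906, at scores of 5.27 and 5.49, lie apart from the other 21 mice, and the upward course of Scd1 continues among the rest.

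The tested genes most like each member were found by Pearson r of log2(CPM + 0.5) over the 23 mice, as a description. Scd1 was most like Plin1, which coats fat droplets in adipocytes (r = 0.80), then Podn and Ttyh2. Thrsp was most like Cd36, a fatty acid transporter (0.85), then Jade2 and Cldn1. Elovl6 was most like Ebf1, a B lineage transcription factor also active in fat and bone cells (0.93), and Mzb1, a marker of antibody-secreting and marginal zone B cells (0.92), then Cplx2. Its r with the score of 5 B cell markers was 0.91, and 0.73 without the 2 mice of farthest score, again A3905 and A3906.

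Mlxipl was most like Lrrc14b (0.95), Smyd1, a methyltransferase of striated muscle (0.94), and 3425401B19Rik. Its r with the score of 5 skeletal muscle markers was 0.84, and 0.80 without the 2 mice of farthest score. The summed muscle markers ran from 138 to 6446 CPM over the mice. Me1 was most like Dag1, the gene of dystroglycan (0.95), Pard3 and Car3, which is among the adipocyte markers used here. The r of Me1 with the skeletal muscle score was 0.15, and 0.24 without the 2 mice of farthest score. Scd2 was most like Ankrd50 (0.94), Zfp532 and Tmem45a, and Fasn like Rrbp1 (0.89), Pald1 and Robo1. Acaca was most like Lama4 (0.85), Pkp4 and Mprip, Srebf1 like Pdgfrb (0.73), Dock4 and Kdr, and Acly like Prkci (0.70), Ttc17 and Specc1l. Without A3905 and A3906, the r of the first-named gene ranged from 0.64 for Acly to 0.95 for Mlxipl. The part of muscle or B cell content in the members' values was not tested.

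In 4 lists of neighbouring pathways no gene passed edgeR's test for T1D in WT or in KO. Of 16 tested enzymes of lipogenesis and NADPH supply (Scd3 was not tested), 0 were called, 10 were higher in WT T1D and the median log2 fold change was 0.07. At an unadjusted p under 0.05, these were Pklr, a pyruvate kinase gene that ChREBP induces in liver (0.54, adjusted p = 0.0651), and the pentose phosphate enzyme genes Tkt (0.17) and Taldo1 (0.21). Of 17 regulators of SREBP-1c and ChREBP, 0 were called and 11 were lower, with the insulin receptor substrates Irs1 at -0.60 (adjusted p = 0.144) and Irs2 at 0.35 (adjusted p = 0.0644), and Rxra, a partner of nuclear receptors, at -0.28 (adjusted p = 0.0795). Of 9 genes of triglyceride assembly, 0 were called and 7 were higher, among them the acyltransferase gene Agpat2 (0.39) and the glycerol phosphate dehydrogenase gene Gpd1 (0.62), while Agpat1 was at -0.14. Of 14 cholesterol genes, which SREBP-2 controls, 0 were called and 11 were lower, among them Hmgcs1 at -0.34 and Cyp51 at -0.37. At an unadjusted p under 0.05 for T1D in WT, the counts were 3 of 16, 6 of 17, 2 of 9 and 3 of 14, against 22.2% of all genes. Without A3905 and A3906 they were 1 of 16, 2 of 17, 0 of 9 and 2 of 14 (1575 of all 14364 genes). The median log2 fold changes of the 4 lists were then -0.009, -0.019, -0.003 and 0.021. With all mice they were 0.065, -0.077, 0.083 and -0.075, so these directions were not kept in 3 of the 4 lists. For T1D in KO the counts with all mice were 0, 2, 0 and 0, against 3.15% of all genes. DESeq2 called 1 gene in each of 3 lists for T1D in WT (6.98% of all genes), among them Pklr and Irs2, and 0 in triglyceride assembly. It called 0 in all 4 for T1D in KO (0.0% of all genes).

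The list of fatty acid oxidation and fasting genes was the only 1 of 5 with genes called by edgeR. For T1D in WT, 5 of 18 rose and 0 fell, against 2.33% of all genes called. Among those that rose were Pck1, of gluconeogenesis and glyceroneogenesis (log2 fold change 3.30 ± 0.86, SE, edgeR adjusted p = 0.0476), Acot1, an acyl-CoA thioesterase (2.31 ± 0.47, adjusted p = 0.0294), Angptl4, an inhibitor of lipoprotein lipase (1.31 ± 0.24, adjusted p = 0.0209), and Cpt1a, which brings fatty acids into mitochondria (0.64 ± 0.15, adjusted p = 0.0446). The list's median was 0.54, and DESeq2 called 7 of 18 (6.98% of all genes). Without A3905 and A3906, edgeR called 0 of 18, with 8 of 18 at an unadjusted p under 0.05 (1575 of all 14364 genes). Pck1 was then at 1.52, Acot1 at 1.19, Angptl4 at 1.17 and Cpt1a at 0.40. In KO, 0 of 18 were called at a median of -0.13 (0 of 18 by DESeq2). At an unadjusted p under 0.05 there were 4 of 18, 2 higher and 2 lower, against 3.15% of all genes. Of the genes named, Angptl4 was at 0.62 in KO (edgeR unadjusted p = 0.0104) and Cpt1a at 0.32 (unadjusted p = 0.0365). Acot1 was at 0.47 and Pck1 at 0.01 in KO. Averaged over genotypes, Angptl4 was called by edgeR (0.96, adjusted p = 0.0335). The difference between this list and the members was not tested.

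Other cell types also differed between WT groups. For T1D in WT, where edgeR called 2.33% of all genes, 5 of 10 erythroid markers were called and higher (mean score 11.0 in Control and 11.6 in T1D). Of 4 tested Schwann cell markers, 1, Mbp, was called and higher. Without A3905 and A3906 edgeR called no gene for T1D in WT, so the calls of these markers, of Fabp4 and of Ibsp were lost. At an unadjusted p under 0.05 (1575 of all 14364 genes) there were then 8 of 10 erythroid and 2 of 4 Schwann cell markers. Of the adipocyte markers there were 2 of 9, and of the osteoblast and osteocyte markers 3 of 8. The osteoclast, neutrophil, B cell, macrophage, skeletal muscle and endothelial lists had 0 called markers by edgeR and by DESeq2. At an unadjusted p under 0.05 they had 0, 1, 0, 3, 0 and 0, against 22.2% of all genes. Without A3905 and A3906 they had 3 of 3, 0 of 6, 2 of 5, 1 of 5, 0 of 5 and 0 of 4 (1575 of all 14364 genes). The median log2 fold change of the osteoclast markers was then -0.67 (0.05 with all mice). That of the B cell markers was 0.40 (-0.03 with all mice). With all mice, 1 of 8 osteoblast and osteocyte markers was called and lower (Ibsp, a bone matrix protein). For T1D in KO, edgeR and DESeq2 called 0 markers, and at an unadjusted p under 0.05 (3.15% of all genes) there were 1 adipocyte and 1 endothelial marker. With the erythroid score as a covariate, edgeR called 0 members in any comparison (0.0% of all genes for T1D in WT), and 0 were called without it too. The part of these cell types in the members' values was not tested.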

How the data were processed

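Per the labels and the study's methods, polyadenylated RNA was made into strand-specific libraries and sequenced in 100-base pairs on DNBSEQ, and the submitters' processing notes name HISAT, Bowtie2 and GRCm38.p6. The deposited expected counts are RSEM estimates per gene that the authors had rounded to whole numbers, and the deposited TPM values (transcript levels scaled for length and depth) were used for levels between genes. Columns were matched to mice by ID. Genes that reached 10 counts in 5 or more mice entered edgeR 4.0.16 (quasi-likelihood, TMM, 1 mean for each of 4 groups, all 23 mice), with Benjamini-Hochberg adjustment over 14364 genes and a threshold of 0.05. Confidence intervals (95%) are the log2 fold change with its SE from the same test. CPM uses the TMM-scaled library, with 0.5 added before the log2. Alternatives were DESeq2 1.42.0, limma 3.58.1 on log2(TPM + 1) and log2(TPM + 0.1), other filters and scaling, subsets of mice, marker scores as covariates and each mouse left out. Scripts were tested on simulated data. Permutation tests used 100000 resamples. Each library is 1 mouse, and no pair of libraries of a group agreed within sampling noise (chi-square per gene at least 10.9). All 10 members are named, with up to 3 genes of lowest p for T1D in WT and any called gene from each pathway list, the 3 genes most like each member, and Sarm1, and 2 genes that this rule names are not reported here. The members, the 5 pathway lists and the marker lists were chosen with earlier results of these data known. Mouse IDs and the ID series are the only batch information in the labels.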

Additional observations from a re-analysis of the deposited data

Results flagged for a closer look

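Each of the 40 sets of 1 member in 1 group was searched for a mouse whose gap to its nearest neighbour was a large part of the group's range, which chance gives in about 1 of 20 sets, and 3 sets had such a mouse. Srebf1 was 59.8 CPM in WT T1D mouse A1758, against 46.4 to 50.5 CPM in the other 5 mice. Me1 was 27.0 CPM in KO T1D mouse A3674, against 14.98 to 18.99 CPM in the others. Mlxipl was 7.23 CPM in WT T1D mouse A3909, against 2.09 to 3.38 CPM in the others, and this mouse also had the highest skeletal muscle score of its group (9.53), whose part in the value was not tested.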

How the results depend on the processing

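The counts of called members were 0 in each comparison by edgeR and stayed 0 with RLE scaling, without the filter on low counts, with either marker score as a covariate, with only the 2 groups compared and without A3905 and A3906. For T1D in WT they were 3 by DESeq2's Wald test, 6 by limma on log2(TPM + 1), 6 by limma on log2(TPM + 0.1), 6 by limma without a filter, 4 within the A36 to A39 mice, 3 with the ID series as a term and 0 to 3 with each mouse left out (2 without A1757, 2 without A1764, 1 without A1758 and 3 without A3909). For KO against WT in T1D they were 1 by DESeq2, 1 and 1 by limma with either pseudocount, 3 within the A36 to A39 mice, 1 with the ID series as a term and 0 to 1 with each mouse left out (1 without A1758 and 1 without A3909). For T1D averaged over genotypes they were 1 by DESeq2, 3 and 3 by limma with either pseudocount, 1 by limma without a filter and 2 within the A36 to A39 mice. The cause was not tested. For T1D in KO, the interaction and KO against WT in Control the count was 0 under every alternative run. Of 710 log2 fold changes of single members under the alternatives, 57 changed sign with neither value past the threshold, and 45 came to pass it in the same direction. With each mouse left out these were 51 and 10 of 1380. The r of Me1 with the adipocyte score turned to 0.35 without the 2 mice of farthest score, and to the same 0.35 without A3905 and A3906. The T1D minus Control difference in the log2 ratio of Scd1 to Scd2 was 0.72 to 1.16 in WT and 0.39 to 0.54 in KO with each mouse left out, and the WT value was 1.51 within the A36 to A39 mice. The alternatives for this ratio, the r without A3905 and A3906 and Sarm1 on log2(TPM + 1) were chosen after seeing the data. The A17 series holds WT mice only, so KO and WT could not be compared within it. Members with few counts, Thrsp with 33 to 177 and Mlxipl with 13 to 186 per mouse, had the widest intervals. No paired analysis was possible because no mouse number is shared between groups.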

Other observations

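The members did not vary as 1 set over the mice. Over all 23 mice the closest pairs were Acaca with Scd2 (Pearson r = 0.81, as a description of log2(CPM + 0.5)), Fasn with Scd2 (0.80), Scd2 with Me1 (0.76) and Fasn with Acaca (0.75), and Thrsp ran opposite to Scd2 (-0.62), Me1 (-0.58) and Fasn (-0.58). Within a mouse the members share 1 library and its depth, and the 2 mice A3905 and A3906 carried much of these relations. Without them Acaca with Scd2 was at 0.73, Fasn with Acaca at 0.60, Fasn with Scd2 at 0.47 and Scd2 with Me1 at 0.31. Thrsp was then at -0.05 with Scd2, 0.02 with Me1 and -0.06 with Fasn.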
